A study of Mus musculus with 20 samples.

Results

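The Satb1 locus is described here as the peaks of 16 deposited lists that overlap mm9 chromosome 17 from 51860000 to 51990000, a window of 130 kb that holds the gene and its flanks. The window held 295 of the 270514 peaks in all lists (0.109%), from 14 of the 16 lists, and none of the 295 crossed its edges. The cells were CD4+/CD8+ double-positive T cells from the thymus of C57BL/6 mice, and the FAIRE and RNA protocols describe the mice as wild type and 5 to 6 weeks old. No treatment is given in the labels, and the FAIRE protocol describes sorting with magnetic beads for CD8 and then CD4. They were profiled by ChIP-seq for 15 targets and by FAIRE, which enriches open chromatin without an antibody. Each target had 1 list, 13 from merged replicates and 3 (CBP, Taf1 and TFIIB) from 1 replicate, so no value below has a replicate error and none carries a test. The input, rabbit immunoglobulin and RNA samples were not analysed here. Peaks were chosen by position, and the window itself was selected on the high area rank of a Ser2P peak in it, so areas and positions are given as descriptions. At the lower edge the nearest H3K4me1 peaks lay 13.0 kb inside and 15.5 kb outside the window, and at the upper edge the nearest H3K36me3 peaks lay 2.99 kb inside and 1.94 kb outside it.

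SATB1 is a nuclear protein that binds AT-rich DNA, organises chromatin loops and is abundant in thymocytes, where it is needed for normal T-cell development. RNA polymerase II (Pol II) is recruited to start sites by the general factors TFIIA, TFIIB, TFIID (which contains TBP and Taf1), TFIIE, TFIIF and TFIIH. The repeats of its C-terminal tail carry phosphate on serine 5 (Ser5P) near initiation and on serine 2 (Ser2P) during elongation. H3K4me3 marks active promoters, H3K4me1 marks enhancers and the surroundings of promoters, and H3K36me3 is laid down along transcribed gene bodies. The samples were bulk chromatin, so occupancy in fewer cells and weaker occupancy in every cell cannot be told apart. Marker genes were not used to check the labelled cell type.

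The RefSeq start-site table (build GRCm38.p6) matched Satb1 with 5 alternative starts, all on the minus strand, so the gene is read towards lower coordinates. The sequence from 250 bases before to 50 bases after each of the 3 outermost starts is shown 5′ to 3′ in lower case. These starts were chosen because most TBP, TFIIB and TFIIE peaks of the locus lay towards its upstream end. Fewer lay lower down, and the starts were not placed on mm9, so the choice links no start to a peak. Capitals mark GGGCGG, the core recognised by SP1-family factors, and GGAAGT, an ETS-type core, each searched on both strands (CCGCCC and ACTTCC), with overlapping matches counted.
Satb1 start 1, chr17:51833241-51833540: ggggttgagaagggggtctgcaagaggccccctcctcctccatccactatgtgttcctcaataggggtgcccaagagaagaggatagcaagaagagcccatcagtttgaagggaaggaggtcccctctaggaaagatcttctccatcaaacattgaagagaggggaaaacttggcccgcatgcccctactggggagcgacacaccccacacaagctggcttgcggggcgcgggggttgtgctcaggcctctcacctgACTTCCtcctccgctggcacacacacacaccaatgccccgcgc
Satb1 start 2, chr17:51832598-51832897: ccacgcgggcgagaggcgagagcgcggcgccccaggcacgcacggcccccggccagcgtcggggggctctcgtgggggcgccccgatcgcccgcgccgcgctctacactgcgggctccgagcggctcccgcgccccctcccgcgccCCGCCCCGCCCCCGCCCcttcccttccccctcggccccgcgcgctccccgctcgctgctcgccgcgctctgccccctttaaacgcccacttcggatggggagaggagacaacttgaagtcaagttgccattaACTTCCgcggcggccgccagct
Satb1 start 3, chr17:51826539-51826838: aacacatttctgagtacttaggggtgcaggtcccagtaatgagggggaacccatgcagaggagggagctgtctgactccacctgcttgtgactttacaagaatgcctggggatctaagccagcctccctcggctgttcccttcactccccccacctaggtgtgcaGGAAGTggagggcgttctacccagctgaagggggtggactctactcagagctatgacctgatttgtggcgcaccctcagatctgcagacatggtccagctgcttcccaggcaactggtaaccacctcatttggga

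Start 2 stood out in base composition, with 45 CpG dinucleotides and 76.7% GC, against a median of 7 CpG and 52.7% GC over 32851 start-site sequences of the same length in the table. Only 1.93% of those sequences had as many CpG. Starts 1 and 3 had 8 and 3 CpG, and starts 4 and 5, which overlap by 170 bases and are not shown, had 13 and 7. GGGCGG occurred 3 times at start 2 and at none of the other 4 starts, and 35.7% of all start-site sequences hold it. GGAAGT occurred once at each start but start 4, and 23.8% of all sequences hold it. The core TATAAA was at none of the 5 and is in 13.6% of all. These starts are in another build than the peaks and were not placed on mm9, so which peak lies at which start is not stated. In the RefSeq gene table the noncoding RNA genes Gm31143 and Gm20098 neighbour Satb1 on its lower and upper side.

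Along the window the lists fell into an ordered pattern. From high to low coordinates, a stretch with H3K4me3, TBP, TFIIB, TFIIE and most Ser5P signal was followed by a body of 70.1 kb almost filled by total Pol II, Ser2P and H3K36me3. Total Pol II had 66 peaks here, Ser2P 62, H3K4me1 56, Ser5P 40, H3K36me3 18, TBP 14, TFIIB 12, H3K4me3 8, TFIIE 7 and TFIIA 6. Taf1 and TFIIH had 2 peaks each, TFIIF and CBP 1 each, and ETS1 and FAIRE none. By covered length H3K36me3 took 96.8 kb of the window, total Pol II 88.2 kb, Ser2P 70.8 kb, H3K4me1 49.7 kb, H3K4me3 26.2 kb and Ser5P 7.17 kb.

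**Figure D1:**
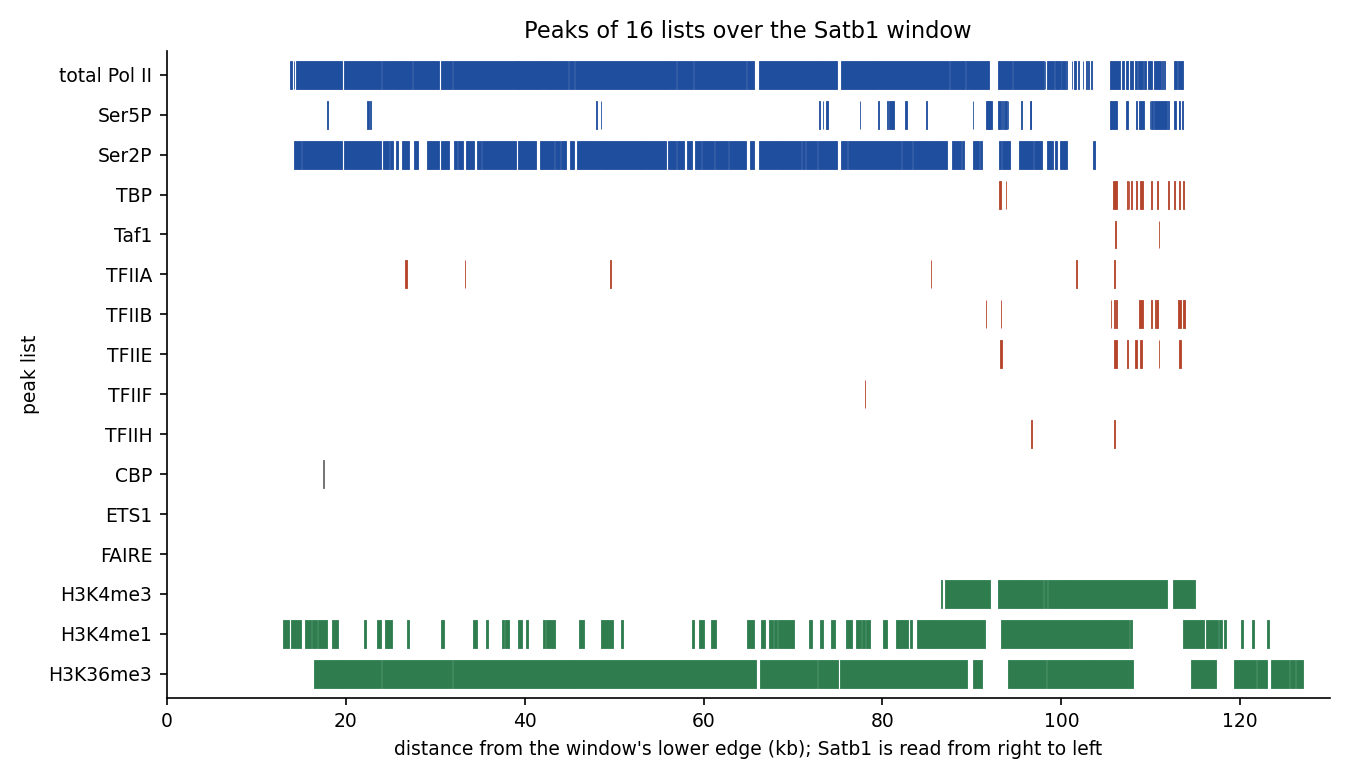
Peaks of the 16 lists over the Satb1 window, one row per list, with distance from the window's lower edge in kb on the horizontal axis and each bar drawn from a peak's start to its end. Blue rows are Pol II forms, red rows TBP and general factors, grey rows CBP, ETS1 and FAIRE, and green rows histone marks. TBP, TFIIB and TFIIE peaks sit in the right part of the window, total Pol II, Ser2P and H3K36me3 fill the middle, and the ETS1 and FAIRE rows are empty.

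The area-weighted mean position of each list, in kb from the lower edge, put this order in numbers. The first and lowest was the single CBP peak at 17.5, followed by Ser2P at 52.4, total Pol II at 57.9, H3K36me3 at 60.0 and TFIIA at 62.8. TFIIF (1 peak) stood at 78.1 and H3K4me1 at 83.7. Ser5P lay at 98.1, TFIIH at 102.0, H3K4me3 at 103.2, TFIIE at 105.5, TBP at 106.8, Taf1 at 107.5 and TFIIB at 109.2. The means of TFIIE, TBP, Taf1 and TFIIB lay close together, and with 1 list each their order has no error by which it could be judged. With unweighted midpoints, 12 of 91 pairs of lists changed order, among them TBP and TFIIB, while Ser2P stayed below Ser5P and Ser5P below TBP. Over the peaks touching the H3K4me3 stretch, the mean of Ser2P lay 2.1 kb above that of total Pol II. This turned their order over the window, but peaks were counted whole. Among them was the total Pol II peak at 51938831 to 51947470, most of it below the stretch. Their order inside the stretch is therefore not read from these means.

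The H3K4me3 stretch ran from 51946491 to 51974890 (28.4 kb) and was 92.3% covered by its 8 peaks. The largest, at 51960331 to 51971810, was 11480 bp wide, against a median of 650 bp for the list, and its area ranked 3 of 28013 H3K4me3 peaks. A second broad peak of 5080 bp, at 51946941 to 51952020, ranked 223. The peak nearest the upper end, at 51972531 to 51974890, ranked 481, and the other 5 ranked from 2339 to 27740. Of the whole genome cut into 19812 windows of 130 kb, 0.0303% had as much covered length of H3K4me3, while 4.04% had as many peaks, so covered length set the locus further apart from the genome than peak number did. Among the 7 gaps between these peaks the 2 widest differed in content. One, of 720 bp at 51971811 to 51972530, held a TBP peak (51971911 to 51972030) and a Ser5P peak and was touched by no other list. The other, of 910 bp at 51952021 to 51952930, was touched by Ser5P only.

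TBP, which nucleates preinitiation complexes, had all of its 14 peaks in the H3K4me3 stretch, and 13 of them overlapped an H3K4me3 peak (92.9%, against 66.3% of the whole TBP list). They formed 2 groups 11.9 kb apart, with 2 peaks at 51953031 to 51953860 and 12 peaks within 8 kb at the upper end. The strongest TBP peak, at 51965731 to 51966180, was 450 bp wide and ranked 396 of 15651 by area. The second, at 51968761 to 51969130, ranked 808, and that at 51953031 to 51953290 ranked 2879. The remaining 11 ranked between 4890 and 15565, so the locus combined 2 strong TBP peaks with many of middle or low area. Ser5P overlapped 12 of the 14 (85.7%, against 40.2%) and total Pol II, which covered 67.8% of the window, 11 (78.6%, against 60.9%). Windows with at least 14 TBP peaks were 0.232% of all.

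**Figure D2:**
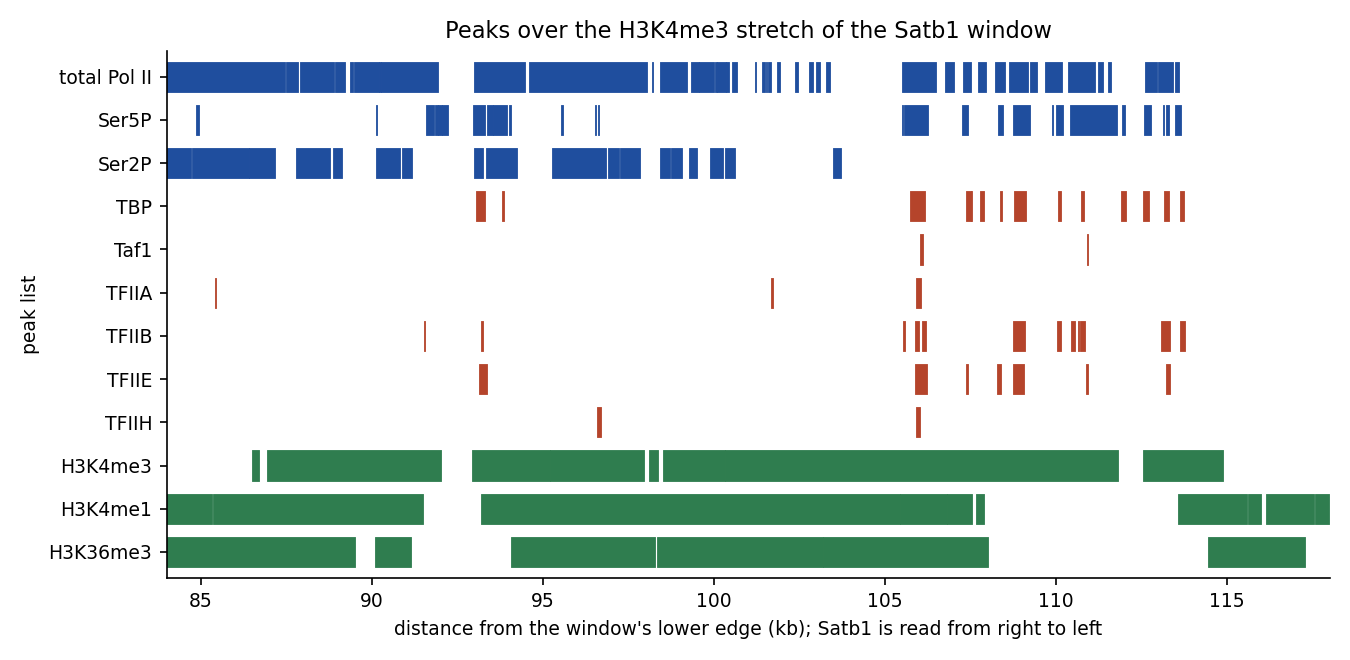
The H3K4me3 stretch at larger scale, with distance from the window's lower edge in kb on the horizontal axis and one row per list (CBP, ETS1, FAIRE and TFIIF, which have no peak here, are left out). The 14 TBP peaks form 2 groups 11.9 kb apart, TFIIB and TFIIE peaks lie in or near both, and the last Ser2P peak ends between them at 103.7 kb.

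TFIIB links TBP to the polymerase, and most of its peaks lay on TBP peaks. All 12 TFIIB peaks overlapped H3K4me3 (100%, against 69.7% of the list), and 8 overlapped a TBP peak (66.7%, against 53.0%). Its highest peak, at 51968731 to 51969100, ranked 344 of 10999 and coincided with the second TBP peak. The next, at 51973061 to 51973320 and 51973611 to 51973770, ranked 1637 and 2615, and the other 9 ranked from 4095 to 10122. TFIIE, which recruits TFIIH, had 7 peaks, all in H3K4me3 (60.4% in the list) and 6 of them on TBP (57.0% in the list). The highest TFIIE peak was at 51965881 to 51966230 with rank 456 of 11678, on the strongest TBP peak, and the second, at 51968741 to 51969050, ranked 1244. Windows with as many TFIIB peaks were 0.257% of all and those with as many TFIIE peaks 1.08%.

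Of the other general factors, Taf1, TFIIH and TFIIF had 1 or 2 peaks each, all of low rank. Taf1, the largest TFIID subunit, had its higher peak at 51966021 to 51966110 (rank 7790 of 13518) and the lower at 51970891 to 51970930 (rank 11714). TFIIH, whose kinase phosphorylates serine 5, had its higher peak at 51965911 to 51966030 (rank 5735 of 8618) and the lower at 51956591 to 51956680 (rank 6873). The single TFIIF peak, at 51938021 to 51938090, ranked 1036 of 1262 and lay in the body, in peaks of total Pol II, Ser2P, H3K4me1 and H3K36me3. Windows with at least as many peaks were 15.7% of all for Taf1, 8.37% for TFIIH and 5.77% for TFIIF. The mean numbers of peaks per window were 0.683, 0.435 and 0.0638, so the locus lay above the mean for each. TFIIA, which stabilises TBP on DNA, had 4 of its 6 peaks below the H3K4me3 stretch, where TBP, TFIIB and TFIIE had no peak. That side takes 86.5 of the 130 kb, so the number is near that of an even spread. All 6 overlapped H3K36me3 (against 5.81% of the TFIIA list), in a window that H3K36me3 covers to 74.5%. The highest TFIIA peak, at 51886671 to 51886830 in the body, ranked 1148 of 6588, and only the one at 51965911 to 51966050 (rank 1757) overlapped TBP. The rest ranked from 2727 to 5680. Only 0.0404% of windows had 6 or more TFIIA peaks.

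Joining peaks of the 13 non-histone lists that lay 500 bp or less apart gave 6 sites, because total Pol II and Ser2P link most of the window. Merging only on overlap gave 57 sites, and merging at 1000 bp gave 2. The site with the most lists was that at 51965481 to 51972030 (6550 bp), with 8 of the 13: total Pol II, Ser5P, TBP, Taf1, TFIIA, TFIIB, TFIIE and TFIIH. Next came 51952961 to 51960670 with 7 lists and 51926161 to 51952230 with 6. The sites at 51873811 to 51925650 (51.8 kb) and 51972551 to 51973770 held 5 each. Leaving out the 3 Pol II lists, a choice made after seeing the data, gave 15 sites. Of these, 10 held a single list, and 5 held 3 or more of the 10 remaining lists. The site at 51965511 to 51966230 (720 bp) held 6, namely every general factor but TFIIF, with TBP. The next was 51970031 to 51970930 with TBP, Taf1, TFIIB and TFIIE, and 3 further sites held TBP, TFIIB and TFIIE.

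Ser5P peaks reached across the gene but were unequal. In the H3K4me3 stretch lay 25 of the 40 peaks and 81.9% of the Ser5P area of the window, with 19.4% of the stretch covered. Below it the 15 other peaks covered 1.92% of 86.5 kb. The highest Ser5P peak, at 51970401 to 51971780, was 1380 bp wide and ranked 106 of 10644. It was the only one in the top 1% of the list (1.01% of its peaks). Below it came 51965551 to 51966250 (rank 343), 51968731 to 51969230 (643) and 51952961 to 51953300 (839). The strongest outside the stretch, at 51940781 to 51941280, ranked 948, and the median peak of the locus stood at 68.7% of the list from the top, so most Ser5P peaks here were small. Within 500 bp of a TBP peak lay 17, and 15 were over 5 kb from one. Ser5P overlapped H3K4me3 at 57.5% of peaks (23 of 40), against 78.7% in the list, and TBP at 30.0% (12 of 40), against 58.9%. By covered length Ser5P was 72.9% in H3K4me3, nearer to the 78.0% of the list's length, and 25.4% in TBP, against 48.9%. It overlapped H3K36me3 at 55.0% (22 of 40), against 4.29%, and Ser2P at 57.5% (23 of 40), against 3.37%. H3K36me3 covered 74.5% of the window and Ser2P, on which the window was selected, 54.5%, so nothing about Ser5P is read from these overlaps. Total Pol II was under 37 of the 40 (92.5%, against 69.1%). It covered 67.8% of the window, so nothing about Ser5P is read from this overlap either. Windows with 40 or more Ser5P peaks were 0.0202% of all, and those with as much covered length 0.0404%.

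Below the stretch, total Pol II filled the body. From 51876421, where H3K36me3 began, to the H3K4me3 stretch, total Pol II covered 96.7%, Ser2P 86.3% and H3K36me3 98.7% of 70.1 kb, and all 3 together 85.9%. The side below the H3K4me3 stretch held 83.9% of the total Pol II area of the window, so the H3K4me3 stretch with its initiation factors had 16.1% of it. The widest total Pol II peak, at 51905671 to 51915540, spanned 9870 bp, against a list median of 140 bp, and ranked 2 of 18037 by area. It was followed by 51938831 to 51947470 (rank 3), 51926201 to 51932780 (5), 51874411 to 51879610 (6), 51892001 to 51899140 (7), 51879761 to 51883960 (10) and 51918941 to 51924800 (11). The locus held 18 of the 181 peaks in the top 1% of the list, and the remaining 11 of these 18 ranked from 24 to 180. The window had 2.98% of the area of the whole total Pol II list. By area per bp of width none of the 66 was in the top 1%: the highest, at 51879761 to 51883960, ranked 551, so the high areas came with width. Of the 66, 41 overlapped H3K4me3 (62.1%, against 64.3% of the list), 21 Ser5P (31.8%, against 36.7%) and 50 H3K4me1 (75.8%, against 49.2%). These shares count peaks, and wide peaks meet others more often. By covered length, total Pol II was 20.1% in H3K4me3 (against 69.9% of the list's length), 7.03% in Ser5P (against 35.4%) and 42.9% in H3K4me1 (against 43.1%). The first 2 thus lay below the list and the third near it. Ser2P overlapped 36 (54.5%, against 7.35%), and by covered length total Pol II was 79.3% in Ser2P (against 11.1%). The window was selected on a Ser2P peak and Ser2P covered 54.5% of it, so nothing about total Pol II is read from this overlap.

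**Figure D3:**
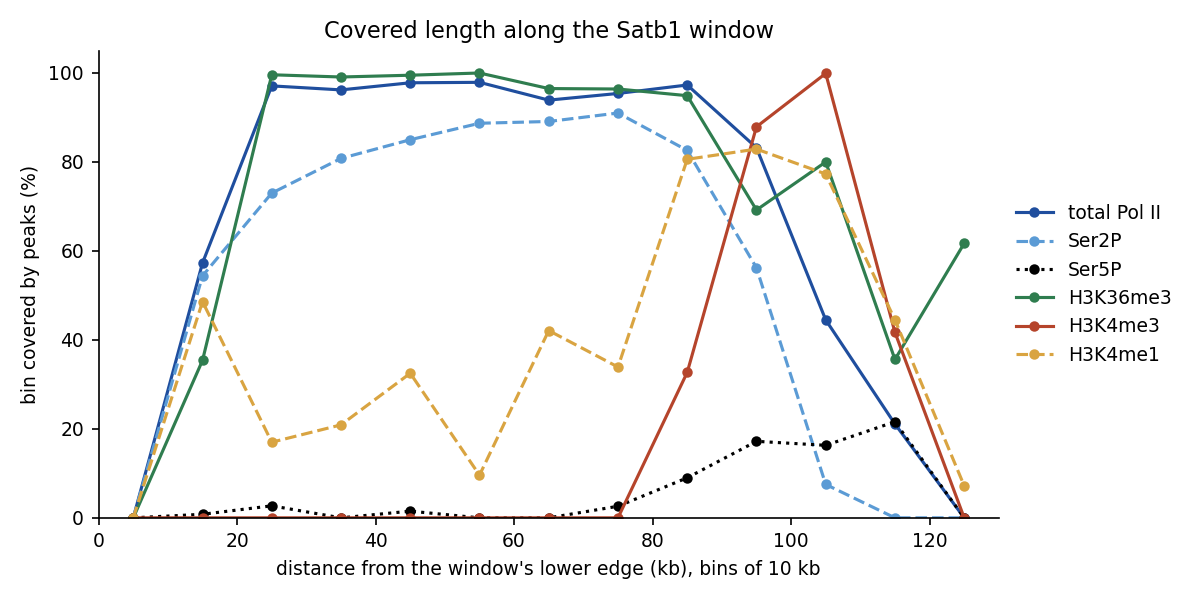
Share of each 10-kb bin covered by peaks of 6 lists (vertical axis, %) against distance from the window's lower edge in kb. Total Pol II and H3K36me3 cover over 90% of each bin from 20 to 90 kb, Ser2P reaches 91.0% at 70 to 80 kb and is at 7.51% at 100 to 110 kb, and H3K4me3 reaches 99.9% there.

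Ser2P marked the body and thinned towards the upper end. In successive 10-kb bins from 70 kb upwards it covered 91.0%, 82.6%, 56.2% and 7.51%, and then nothing, while total Pol II covered 95.4%, 97.3%, 83.2%, 44.5% and 21.1%. The Ser2P peak nearest the upper end stopped at 51963710, below the site with 6 factors, and none of the 62 lay above it.

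The strongest Ser2P signal lay at the opposite end. The peak of highest area, at 51875141 to 51879600 (4460 bp), ranked 2 of 1811 by area and 1 by area per bp of width, at 214 in the authors' area units per bp. The next in area were 51936141 to 51942130 (5990 bp, rank 4), 51879801 to 51883960 (rank 6, and 4 by area per bp), 51909251 to 51912890 (8), 51895261 to 51899080 (14) and 51926161 to 51928900 (15). These made up 6 of the 19 peaks (1.05% of 1811) in the top 1% of the list. The window was selected on the area rank of a Ser2P peak, so these ranks only describe it. Per covered bp the Ser2P area was 200 in the bin at 10 to 20 kb and 120 in the next, between 82.2 and 104 in the bins from 30 to 90 kb, and 72.9 and 60.7 in the last bins with signal. Of the 62 peaks, 61 overlapped total Pol II (98.4%, against 51.8% of the list), 47 H3K4me1 (75.8%, against 32.1%) and 16 H3K4me3 (25.8%, against 14.7%). Total Pol II covered 67.8% of the window, so the first share describes the window rather than Ser2P. By covered length the H3K4me3 share turned below that of the list (11.2%, against 14.3%), and the H3K4me1 share was 43.1%, against 33.8%. The 62 peaks were 3.42% of all Ser2P peaks but 11.7% of the area of the list.

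Against the rest of the genome, the locus had the highest Ser2P number and length of the 19812 windows. No other window had as many Ser2P peaks or as much covered length, so the share with at least as many was 0.00505%, the window itself. For total Pol II the shares were 0.0505% by number and 0.00505% by length. The next highest window covered 37.7 kb with Ser2P, against 70.8 kb here, and the next highest for total Pol II covered 50.5 kb, against 88.2 kb. Since the window was chosen with its Ser2P rank known, these shares describe it and test nothing.

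**Figure D4:**
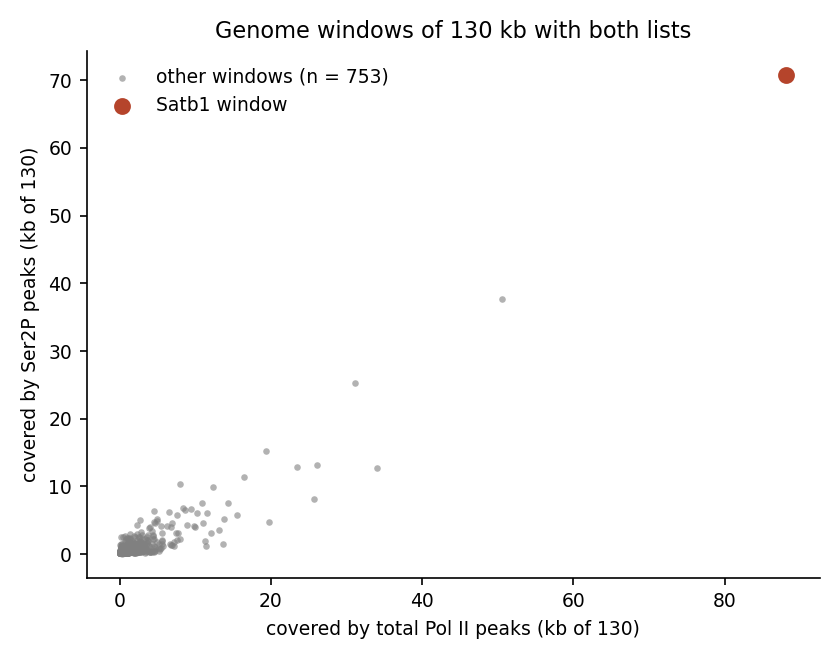
Kilobases covered by Ser2P peaks against kilobases covered by total Pol II peaks in the 754 windows of 130 kb that hold both, each point a window and the marked point the Satb1 window. The Satb1 window stands at 88.2 kb of total Pol II and 70.8 kb of Ser2P, above the other 753 on both axes.

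H3K36me3, deposited on nucleosomes as Pol II elongates, covered 74.5% of the window with 18 peaks of median width 3730 bp, against 1390 bp in the list. The highest, at 51905631 to 51925910, was 20280 bp wide and ranked 14 of 49181. It was followed by 51935281 to 51949490 (rank 78) and 51892001 to 51905580 (rank 96). Nearly all Ser2P peaks overlapped it (60 of 62, 96.8%, against 53.7% of the Ser2P list), as did 54 of 66 total Pol II peaks (81.8%, against 13.9%). H3K36me3 also overlapped all 8 H3K4me3 peaks, whereas 1.97% of the H3K4me3 list met an H3K36me3 peak. Since H3K36me3 covers most of the window, high overlaps with it describe the window rather than the list that overlaps. Windows with as much H3K36me3 length were 0.0505% of all, and those with as many peaks 3.88%.

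H3K4me1 lay on both sides of the H3K4me3 stretch and within it. Its 56 peaks were short, with a median of 460 bp against 640 bp in the list. Most were of low area: the median peak stood at 71.1% of the list from the top, and 15 were in its upper 50%. Windows with as many H3K4me1 peaks were 0.0101% of all, and those with as much covered length 0.298%. One broad peak stood out, at 51953201 to 51965430 (12230 bp), which ranked 21 of 74607, and 51945361 to 51951490 ranked 537. The stretch held 57.9% of the H3K4me1 area, the lower side 35.5% and the upper side 6.58%. H3K36me3 overlapped 50 of the 56 (89.3%, against 6.00% of the list), again in a window mostly covered by H3K36me3. Above the stretch, from 51974891 to 51990000, only H3K4me1 (8 peaks) and H3K36me3 (6 peaks) were found.

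CBP, a histone acetyltransferase coactivator, had its only peak at 51877501 to 51877550, far below the H3K4me3 stretch, with rank 4820 of 6372, and 23.0% of windows had a CBP peak. ETS1, a transcription factor of T cells, and FAIRE had none. A window without ETS1 was common (91.4% of all), and so was one without FAIRE (74.0%). Of the 6177 windows with a total Pol II peak, 2609 had no FAIRE peak. Among the 801 windows with at least 8 H3K4me3 peaks, 58 (7.24%) had no FAIRE peak, 433 (54.1%) no ETS1 peak and 50 (6.24%) neither. The nearest FAIRE peaks lay 1250 kb below and 28.7 kb above the window, and the nearest ETS1 peaks 312 kb below and 53.4 kb above. The distance between the FAIRE peaks on either side was 1410 kb, and 3.66% of neighbouring FAIRE peaks were at least as far apart. For ETS1 the distance was 495 kb, and 39.4% of neighbouring ETS1 peaks were at least as far apart. The FAIRE track name records no artefact removal, scaling or background subtraction, unlike the others, and the part of this in the empty row was not tested.

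Over all lists, 32 of the 295 peaks were in the top 1% of their list by area (10.8%, against 1.00% of all peaks) and 172 (58.3%, against 50.0%) in the upper 50%. The window was selected on the area rank of a Ser2P peak, and Ser2P is counted in both, so nothing is read from these pooled shares. In the upper 50% were 53 of 62 Ser2P peaks and 45 of 66 of total Pol II, but 17 of 40 of Ser5P and 15 of 56 of H3K4me1. The 32 were 18 of total Pol II, 6 of Ser2P, 3 of H3K36me3, 2 each of H3K4me3 and H3K4me1, and 1 of Ser5P. None of TBP or the general factors was among them. Ranked by area per bp the number fell to 11 (6 of Ser2P and 5 of H3K36me3), so the high ranks of total Pol II, H3K4me3, H3K4me1 and Ser5P came with width. Area grows with width in these lists, and areas of different lists have no stated common scale, so ranks were read within a list.

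**Figure D5:**
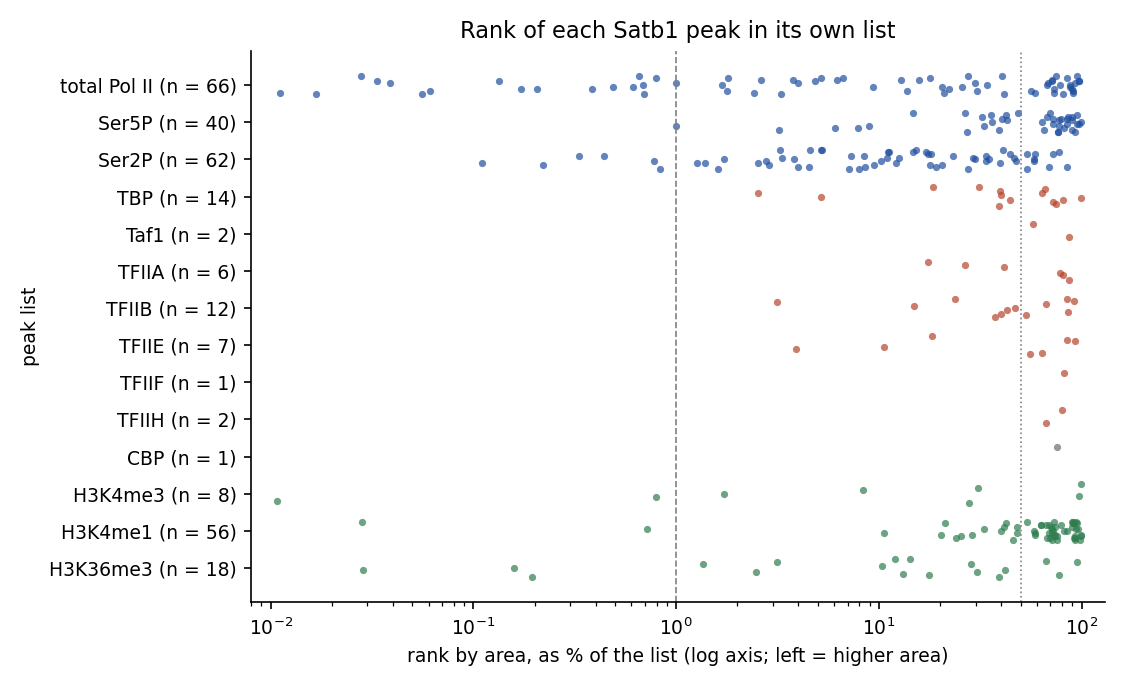
Rank of each peak of the locus by area within its list, as a percentage of the list on a log horizontal axis (left is higher area), one row per list and one point per peak. The dashed vertical line is at 1% and the dotted line at 50%. Total Pol II, Ser2P, H3K36me3, H3K4me3, H3K4me1 and Ser5P have peaks left of the 1% line, and neither TBP nor a general factor does.

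For likeness, each list's covered length was divided by its mean over all windows, which gives Ser2P and total Pol II the most weight. The 3 windows most like the locus had cosine similarities of these scaled lengths of 0.999, 0.997 and 0.997. The first, on chromosome 1 from 139740000 to 139869999, had 306 peaks, with 50.5 kb of total Pol II, 37.7 kb of Ser2P, 64.2 kb of H3K36me3 and 13.0 kb of H3K4me3. It had 7 TBP peaks against 14 here and 18 Ser5P peaks against 40. The second, on chromosome 6 from 8440000 to 8569999, had 19.3 kb of total Pol II and 15.3 kb of Ser2P. The third, on chromosome 9 from 111920000 to 112049999, had 16.4 kb and 11.4 kb, with no TBP or H3K4me3 peak.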

How the data were processed

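ChIP-seq for 15 targets and FAIRE in mouse thymocytes gave 16 deposited peak lists, each with start, end and area. The area is a signal value, the area under the authors' track over the peak, per the file headers and names. Per the same names, every track but FAIRE had passed artefact removal, scaling and background subtraction, and 13 lists came from merged replicates. Build mm9 is per the submitters' processing notes. The aligner, the peak caller and its threshold were not given in the sources used here. Read depth is unknown, so no value has an interval for sequencing error. Wilson intervals (95%) over the peaks of 1 list were computed only for the shares compared between settings in the closing section.

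Peaks overlapping the window by 1 bp were taken. Areas were ranked within each list, positions were weighted by area, peaks of 13 lists were merged at 500 bp or less, and the genome was cut into 19812 windows of 130 kb as background. Named peaks were the highest of each list and those in its top 1%, with further peaks of the general factors, Ser5P and H3K4me3 named after their values were seen. Named sites were the 5 with the most lists. The scripts were tested on simulated data. Python 3.11.15, numpy 2.4.6, pandas 2.3.3, scipy 1.17.1 and matplotlib 3.10.9 were used. The locus and lists were chosen with earlier results of these data known. Marker and T-lineage gene lists needed an mm9 annotation and were not used. Promoters are RefSeq, GRCm38.p6. The closing section gives the alternatives.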

Additional observations from a re-analysis of the deposited data

How the results depend on the processing

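With 1 list per target there is no replicate error, read depth is unknown, and no alternative tests a difference. No paired analysis was possible because no result comes from a test. Of 74 recomputed values, 43 stayed within 1.5 times the value reported or, for shares, within its 95% Wilson interval, 30 moved and 1 reversed. The intervals treat neighbouring peaks of 1 list as independent, so they measure no replicate spread and depend on how finely peaks were split. The 43 include the peak numbers recounted with peaks wholly inside the window. These could not change, because no peak crossed its edges, and say nothing about stability. With the upper 50% of each list, 172 peaks remained and Ser5P in H3K36me3 was 35.3%. Ranked by area per bp, 11 peaks were in the top 1%. With unweighted midpoints the mean positions differed by 26.2 kb (Ser5P minus Ser2P), 20.2 kb (TBP minus Ser5P) and -17.5 kb (Ser2P minus total Pol II), against 45.7, 8.7 and -5.5 kb. Over peaks touching the H3K4me3 stretch, chosen after seeing the data and counted whole, they were 11.1, 1.6 and 2.1 kb. The last had its direction turned, with a wide total Pol II peak lying mostly below the stretch among those counted, so it does not give the order inside the stretch. The number of sites was 57 when merged only on overlap, 2 at 1000 bp and 15 without the Pol II lists. By covered length, Ser5P was 72.9% in H3K4me3 (78.0% over the list) and 38.4% in H3K36me3, and Ser2P 11.2% in H3K4me3 (14.3% over the list). Total Pol II was 90.5% in H3K36me3 and 20.1% in H3K4me3 (69.9% over the list). Shares of windows by covered length were 0.00505% (total Pol II), 0.0404% (Ser5P) and 0.0303% (H3K4me3). With windows shifted by 65 kb, which splits the locus, they were 0.0101% (Ser5P) and 0% (Ser2P). Over windows with a total Pol II peak, added after seeing the data, they were 0.162% (total Pol II), 0.0648% (Ser5P), 0.0162% (Ser2P), 0.745% (TBP) and 12.5% (H3K4me3). The causes were not tested.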

Other observations

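Between 51876421 and 51946490 the gaps of H3K36me3 fell on gaps of total Pol II and Ser2P, while most of the gap length of those 2 lists lay elsewhere. H3K36me3 had 7 gaps of 930 bp in all, and each was overlapped by a gap of total Pol II and a gap of Ser2P. Total Pol II left 87.1% of the H3K36me3 gap length uncovered, against 2.18% of the length that H3K36me3 covered. For Ser2P these shares were 89.2% and 12.6%. The 7 stretches without any of the 3 lists added up to 770 bp, of 2320 bp left uncovered by total Pol II and 9570 bp by Ser2P. The cause was not tested.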
